A study of Mus musculus with 75 samples.

Results

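The contacts of Hoxb-E1, an enhancer in the Hoxb homeobox cluster, were read by 4C-seq in mouse embryonic stem cells that lacked RARα, RXRα or both. The libraries described here are the 8 of the 75 samples of the series whose titles name the Hoxb-E1 bait, 2 for each of 4 genotypes: WT, Rarα-KO (Rara knocked out), Rxrα-KO (Rxra knocked out) and RARX-DKO (both knocked out). All were made from E14 cells, an embryonic stem cell line from the blastocyst. Cells of every genotype, WT included, had been differentiated for 24 h by withdrawal of LIF and 2i (inhibitors of MEK and GSK) and addition of 2 µM retinoic acid, so every comparison is between receptor genotypes under retinoic acid and none is with untreated cells. The design text calls the replicates biological. How many clones stand behind a knockout is not stated, so a difference between genotypes cannot be told apart from a difference between clones.

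Retinoic acid binds the retinoic acid receptors (RARs), which sit on DNA as heterodimers with retinoid X receptors (RXRs) at direct repeats of a short half-site. The Hox genes are classical targets: genes at the 3′ end of a cluster, such as Hoxb1, respond first, and 5′ genes such as Hoxb9 and Hoxb13 later. In 4C-seq, DNA is cut and ligated in crosslinked nuclei, and the fragments joined to one chosen fragment, the bait, are amplified and sequenced. The number of reads on a fragment therefore reflects how often it was ligated to the bait and how well that junction was amplified.

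The bait was placed by the reads. The 10-kb window with the most reads over the 8 libraries was chr11:96300001-96310000 (mm10), and the fragment with the most reads in every library lay in it, at chr11:96308539-96308652, beside chr11:96308655-96308833. Both lie in no gene, between Hoxb5os and Mir10a and so between Hoxb5 and Hoxb4 (GENCODE vM21). The sequences below are those on which the results turn, from the RefSeq GRCm38 assembly, plus strand, with the GATC sites that bound the fragments in capitals. The first is the pair of bait fragments, the second a stretch of the Hoxb13 intron around the GATC site that starts its most-read wholly intronic fragment (chr11:96195276-96195575) and the third a tandem repeat in an intron of Skap1 (chr11:96509192-96509491).
Hoxb-E1 bait: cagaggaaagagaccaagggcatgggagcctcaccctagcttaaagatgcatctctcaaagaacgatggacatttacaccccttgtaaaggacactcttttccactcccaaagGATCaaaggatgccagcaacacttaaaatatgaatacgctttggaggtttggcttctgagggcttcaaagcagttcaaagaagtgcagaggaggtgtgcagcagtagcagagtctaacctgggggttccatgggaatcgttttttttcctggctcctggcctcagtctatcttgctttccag
Hoxb13 intron: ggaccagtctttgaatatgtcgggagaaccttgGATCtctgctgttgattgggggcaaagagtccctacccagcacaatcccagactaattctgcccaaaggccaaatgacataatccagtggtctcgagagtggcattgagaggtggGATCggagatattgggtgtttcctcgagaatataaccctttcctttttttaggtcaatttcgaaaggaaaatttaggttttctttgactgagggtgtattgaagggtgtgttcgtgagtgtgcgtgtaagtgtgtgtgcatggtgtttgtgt
Skap1 tandem repeat: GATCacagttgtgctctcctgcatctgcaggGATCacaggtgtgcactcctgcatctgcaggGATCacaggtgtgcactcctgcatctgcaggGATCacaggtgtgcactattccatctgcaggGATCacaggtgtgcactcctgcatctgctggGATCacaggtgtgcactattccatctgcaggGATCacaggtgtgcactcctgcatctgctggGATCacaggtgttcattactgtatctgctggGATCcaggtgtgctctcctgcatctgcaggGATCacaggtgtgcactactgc

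The Skap1 stretch holds 10 GATC sites. It is made mostly of units of 31 bases, each a GATC followed by the rest of the unit. The repeat gave 9 deposited fragments of 29 bases, the last of which runs past the printed stretch, with 6 distinct sequences and 24 to 29 bases identical to the commonest base at each position. Direct repeats of the receptor half-site (any of AGGTCA and its variants GGGTCA and AGTTCA and also GGTTCA, searched on both strands) with a spacing of 1, 2 or 5 bases, called DR1, DR2 and DR5, were counted in the 201 windows of 10 kb within 1 Mb, and matches could overlap. DR1 matched in 11.4% of windows, DR2 in 12.4% and DR5 in 4.98%. The bait window, the Hoxb13 window and the window of the Skap1 repeat held no match. The window taken for the other bait, Hoxb-E2 (chr11:96580001-96590000), held a DR2. In the window beside it lay DR1 matches at chr11:96578689-96578701 and chr11:96578908-96578920 and a DR2 match at chr11:96576962-96576975. A DR5 match lay beyond the 3′ end of Hoxb1, GGTTCATAGAGAGTTCA at chr11:96372776-96372792, and another in an intron of Hoxb3 at chr11:96341236-96341252.

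The libraries held 35201280 to 47639838 reads on 78913 to 134799 fragments, and 51.23% of the 402401 fragments seen in any library were seen in 1 library only. The 100 highest fragments took 22.06% to 34.9% of a library's reads. Reads carry no molecular identifier, and between 2 libraries of a genotype the window counts varied 19200 to 30610 times more than counting error alone would give. That ratio takes reads as independent, and how many ligated molecules stand behind them is not known. The 3 knockouts were compared with the same 2 WT libraries, so these comparisons are not independent of each other. Among fragments within 1 Mb with at least 1 read, libraries with the same replicate number shared more (59.7% to 74.11%) than libraries of the same genotype (54.55% to 57.13%). Pairs with neither in common shared 53.68% to 57.81%. Among fragments with 1000 or more reads the ranges overlapped, at 32.46% to 45.8%, 33.78% to 39.45% and 30.6% to 40.67% in the same order. What set these shares was not tested. RNA-seq of the same genotypes is given in CPM, a gene's counts relative to the library size after TMM scaling. Rara was at 99.9 and 108 CPM in WT, 5.34 and 4.36 in Rarα-KO, 99.1 and 83.1 in Rxrα-KO and 5.55 and 6.51 in RARX-DKO. Rxra was at 38.2 and 45.9 CPM in WT, 42.1 and 48.5 in Rarα-KO and 18.3 and 16.1 in Rxrα-KO, and in RARX-DKO at 13.6 and 27.5. Rxra thus stayed detectable in the lines that lack it by name, and its fall passed the test in Rxrα-KO (edgeR adjusted p = 0.0264, and 0.0763 to 0.314 without any 1 of the WT or Rxrα-KO libraries) but not in RARX-DKO (adjusted p = 0.0654, and 0.00384 without RARX-DKO replicate 2). The exons deleted are not given, so these levels do not show how much working receptor was left. The 6 stem cell markers summed to 2900 and 2920 CPM in WT and to 3590 to 4510 in the 6 knockout libraries, all above WT. Of these, Nanog rose in Rarα-KO (adjusted p = 0.022), and Sox2 and Zfp42 rose in Rxrα-KO (adjusted p = 0.0295 and 0.0259) and RARX-DKO (adjusted p = 0.00611 and 0.000954). In Rxrα-KO, Nanog (350 and 324 CPM, against 468 and 411 in WT) and Klf4 (45.1 and 67.8, against 86 and 86.1) lay below WT. Neither passed (edgeR adjusted p = 0.313 and 0.279), and Pou5f1 and Esrrb lay above WT there without passing. In the same libraries 2 of the 4 fibroblast markers were at 0 in every library. The 4 summed to 1.3 to 7.73 CPM, most of it from Col1a1 (1.17 to 7.62 CPM). The 4 primitive endoderm markers summed to 75.6 to 77.5 CPM in WT, 29.9 to 35.7 in Rarα-KO, 111 to 118 in Rxrα-KO and 18.4 to 22 in RARX-DKO, and the part of these marker differences in the contacts was not tested.

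The bait contacted mainly its own chromosome, and mainly the side of the cluster that faces Skap1, a gene for an adaptor protein of T cells. Outside the bait window and 2 windows on each side, chromosome 11 took 58.36% and 55.57% of reads in WT, 56.28% and 53.92% in Rarα-KO, 65.61% and 64.21% in Rxrα-KO, and 54.66% and 54.75% in RARX-DKO. Both Rxrα-KO libraries were above the other 6. Windows within 1 Mb alone took 45.85% and 44.79% in WT, 43.3% and 40.46% in Rarα-KO, 50.64% and 50.7% in Rxrα-KO, and 42.16% and 41.27% in RARX-DKO, so the Rxrα-KO libraries were again the highest and no library of Rarα-KO or RARX-DKO reached the WT values. With 2 libraries against 2 an exact two-sided permutation test cannot go below 0.333. The exact permutation test over all 4 genotypes, whose smallest possible p is 0.00952, gave p = 0.0571 for the chromosome and p = 0.0286 within 1 Mb, and 0.285 for both after Benjamini-Hochberg adjustment over the 20 region shares computed. The differences in these shares thus did not pass.

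All shares from here on are percentages of the reads within 1 Mb of the bait and outside the 5 bait windows, called near reads (12581957 to 19907802 per library). The Skap1 side held 74.21% to 82.9% of them in the 8 libraries, and the side of Hoxb9 and Hoxb13 the rest. On the Skap1 side a window held on average 2.19% to 3.05% up to 100 kb, 1.45% to 1.99% from 100 to 250 kb, 0.734% to 0.977% from 250 to 500 kb and 0.145% to 0.267% beyond. On the Hoxb9 side the same distances gave 0.693% to 0.94%, 0.329% to 0.673%, 0.102% to 0.251% and 0.0382% to 0.111%. In every library the average on the Skap1 side was above that on the Hoxb9 side at each of these distances.

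**Figure D1:**
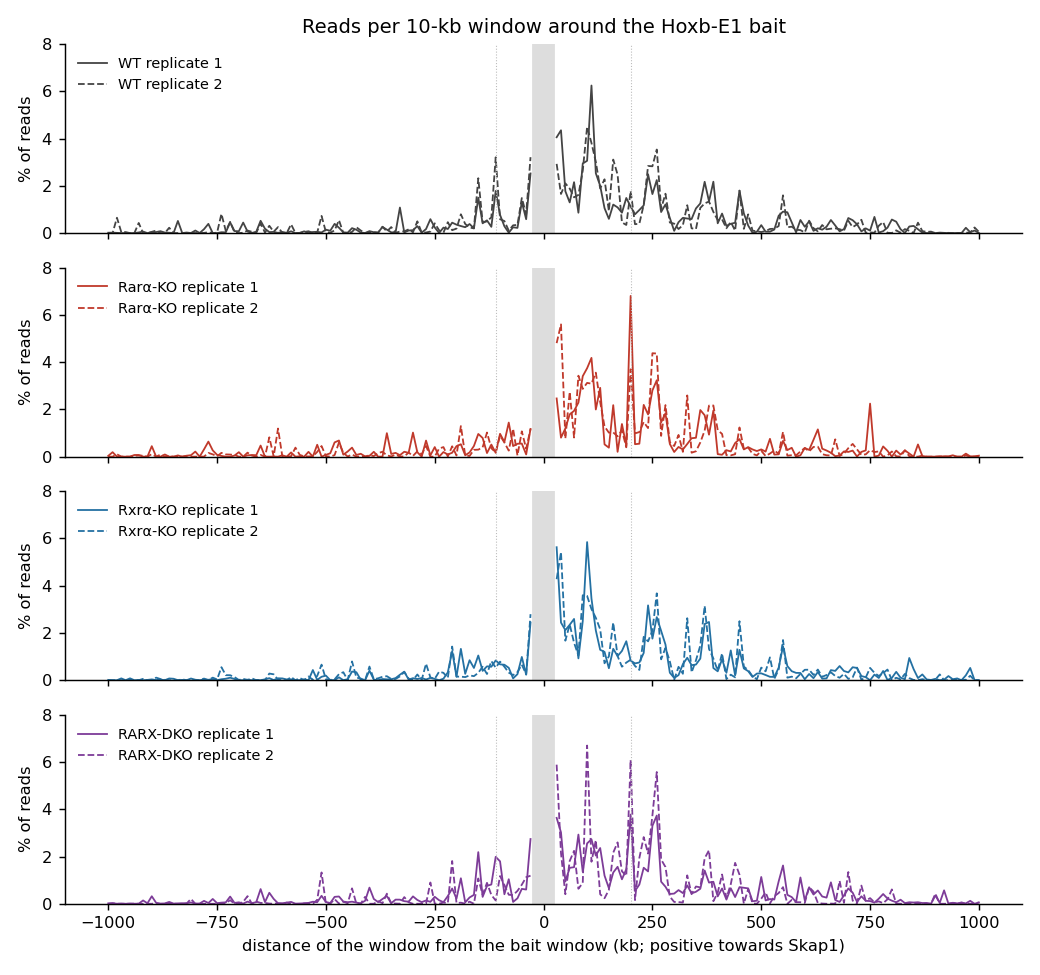
Share of near reads (%, y axis) in each 10-kb window by distance from the bait window (kb, x axis), one panel per genotype and one line per library; the grey band marks the 5 windows left out and the dotted lines the windows over Hoxb13 and inside Skap1. Reads lean to the Skap1 side in all 8 libraries, and at the right dotted line the 4 libraries of Rarα-KO and RARX-DKO stand at 3.69% to 6.8% and the other 4 at 0.83% to 1.78%.

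The windows below were picked because the lowest of their 8 library values was high. Their presence in all 4 genotypes follows from that choice. The window chr11:96330001-96340000, inside Hoxb3, held 2.46% to 5.89% of near reads in the 8 libraries. The window chr11:96400001-96410000, in the intergenic stretch between Hoxb1 and Skap1, held 2.56% to 6.69% of near reads in the 8 libraries, and its neighbour chr11:96410001-96420000 held 1.78% to 6.24%. Beyond 250 kb the highest by this measure was chr11:96560001-96570000, inside Skap1 and 260 kb away. It held 2.24% and 3.54% in WT, 3.23% and 4.36% in Rarα-KO, 2.67% and 3.68% in Rxrα-KO, and 3.73% and 5.57% in RARX-DKO. The RARX-DKO libraries were above both WT libraries at this last window, and those of RARX-DKO and Rxrα-KO were below both at the neighbour. None of the 4 windows passed the test in any knockout.

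The whole stretch between Hoxb1 and Skap1 held 22.33% and 24.2% of near reads in WT, 22.98% and 21.76% in Rarα-KO, 20.9% and 20.96% in Rxrα-KO, and 18.53% and 18% in RARX-DKO. The RARX-DKO libraries were the lowest and both WT libraries lay above both Rxrα-KO and both RARX-DKO libraries. The exact permutation test over the 4 genotypes gave p = 0.0381, adjusted 0.285. The Skap1 gene body held 31.54% and 31.26% in WT, 35.98% and 38.07% in Rarα-KO, 33.56% and 33.31% in Rxrα-KO, and 31.22% and 44.93% in RARX-DKO. WT and the single knockouts did not overlap there, and the RARX-DKO pair was spread over more than their whole range. The exact permutation test over the 4 genotypes gave p = 0.486, adjusted 0.83.

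**Figure D2:**
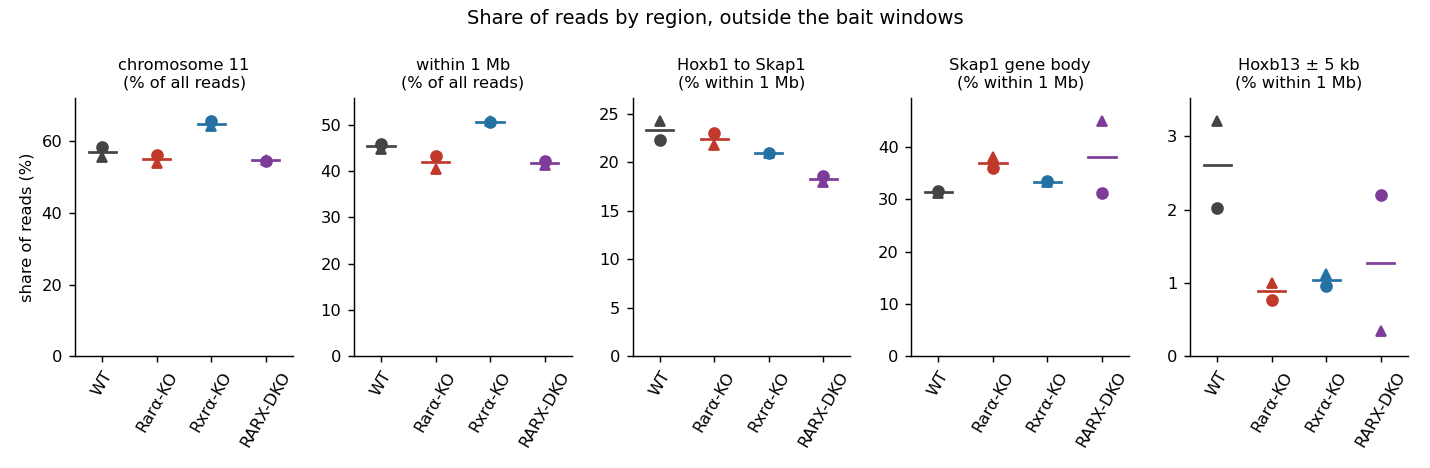
Share of reads (%, y axis, from 0) in 5 regions for each genotype; circles are replicate 1, triangles replicate 2 and bars the mean of the pair. The Rxrα-KO libraries sit highest for chromosome 11 (65.61% and 64.21%), the RARX-DKO libraries lowest between Hoxb1 and Skap1 (18.53% and 18%), and the RARX-DKO pair is wide apart over Skap1 and Hoxb13.

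The other Hoxb bait, Hoxb-E2, was placed by its 10-kb window with the most reads, 280 kb away inside Skap1. Its exact place is not settled. The fragment chr11:96579146-96579379, just outside that window, had 336000 and 63320 reads in WT. Inside it, the 10-base fragment chr11:96588868-96588877 had 118332 and 59641. With this limit, the contact between both baits could be read from either end. From Hoxb-E1, the Hoxb-E2 window chr11:96580001-96590000 held 1.21% and 1.67% of near reads in WT, 1.83% and 2.18% in Rarα-KO, 1.51% and 1.37% in Rxrα-KO, and 0.721% and 1.56% in RARX-DKO. Both Rarα-KO libraries were above both WT libraries, and the other genotypes overlapped WT. None of the differences from WT passed: log2 fold changes were 0.48 (SE 0.66, edgeR adjusted p = 0.999), 0.00 (SE 0.66, adjusted p = 0.998) and -0.34 (SE 0.66, adjusted p = 0.994). From Hoxb-E2, the Hoxb-E1 window held 1.93% and 2.44% of that bait's near reads in WT, 1.48% and 1.96% in Rarα-KO, 1.4% and 2.14% in Rxrα-KO, and 0.61% and 1.81% in RARX-DKO, and the log2 fold changes were -0.35, -0.30 and -0.85 (adjusted p = 0.991, 0.999 and 0.981). RARX-DKO replicate 1 was the lowest library from both ends. Reads in the window of the other bait were thus found in every library, and a change in them was not detectable with 2 libraries per genotype. From Hoxb-E1, RARX-DKO replicate 1 (0.721%) lay below its own average of 0.734% for Skap1-side windows at 250 to 500 kb. The other libraries lay above theirs. Whether the contact exceeded that of other windows at this distance was not tested.

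Across all 196 windows tested, few differed from WT. In Rarα-KO 2 windows (1.02%) passed edgeR's quasi-likelihood test at an adjusted p under 0.05, one over Hoxb13 that was lower and one inside Skap1 that was higher. None passed in Rxrα-KO (0%) and none in RARX-DKO (0%). At an unadjusted p under 0.05 there were 10, 10 and 9 windows, 5.1%, 5.1% and 4.59% of those tested, and DESeq2 called 9, 7 and 5. The median standard error of a window's log2 fold change was 2.18, 2.16 and 2.18 (Rarα-KO, Rxrα-KO and RARX-DKO against WT), so a typical window could differ several-fold without passing.

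The Hoxb13 window, chr11:96190001-96200000, lies 110 kb from the bait and covers the whole gene (chr11:96194316-96197447), the most 5′ member of the cluster and a homeobox factor of the tail end of the body. It held 1.78% and 3.21% of near reads in WT, 0.161% and 0.179% in Rarα-KO, 0.838% and 0.533% in Rxrα-KO, and 1.99% and 0.142% in RARX-DKO. Both Rarα-KO libraries and both Rxrα-KO libraries were below both WT libraries, while the RARX-DKO libraries were 1 near WT and 1 the lowest of all 8. Against WT the window fell by 3.88 on the log2 scale in Rarα-KO (SE 0.87, edgeR adjusted p = 0.00222). In Rxrα-KO the log2 difference was -1.86 (SE 0.80, adjusted p = 0.857) and in RARX-DKO -1.23 (SE 0.79, adjusted p = 0.994). Between knockouts, neither Rxrα-KO (log2 difference 2.01, adjusted p = 0.742) nor RARX-DKO (2.65, adjusted p = 0.288) was shown to differ from Rarα-KO, so the fall is not shown to be particular to Rarα-KO. Without RARX-DKO replicate 2, RARX-DKO was above Rarα-KO (3.55, adjusted p = 0.00154), and without RARX-DKO replicate 1 the difference was -0.26 (adjusted p = 0.903), over a range of 0.00154 to 0.903 for all its alternatives.

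In both WT libraries and RARX-DKO replicate 1 the highest fragments of the window lay inside the gene. Of the window's 21 fragments, 18 and 14 had a read in WT and 18 and 17 in Rarα-KO, so about as many fragments were seen. In WT replicate 1 the fragment chr11:96194602-96195309 alone had 118719 reads and chr11:96194433-96194599 had 90723. In WT replicate 2 the leading fragment was another, chr11:96195427-96195851 with 109316 reads, followed by the adjoining chr11:96195854-96195912 with 98601. RARX-DKO replicate 1 was high on these last fragments (71322 and 71083 reads), and both Rarα-KO libraries had at most 1779 reads on any of the 4. With fragments counted once each if they had a read, in place of reads, the log2 difference was 0.14 (adjusted p = 0.995). The call was also lost without WT replicate 2 (log2 difference -3.39, adjusted p = 0.349), without Rarα-KO replicate 1 (-3.81, adjusted p = 0.0737), with TMM scaling (-3.56, adjusted p = 0.141) and with capped reads per fragment (-2.13, adjusted p = 0.622), against 3.7e-05 to 0.995 over all its alternatives.

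**Figure D3:**
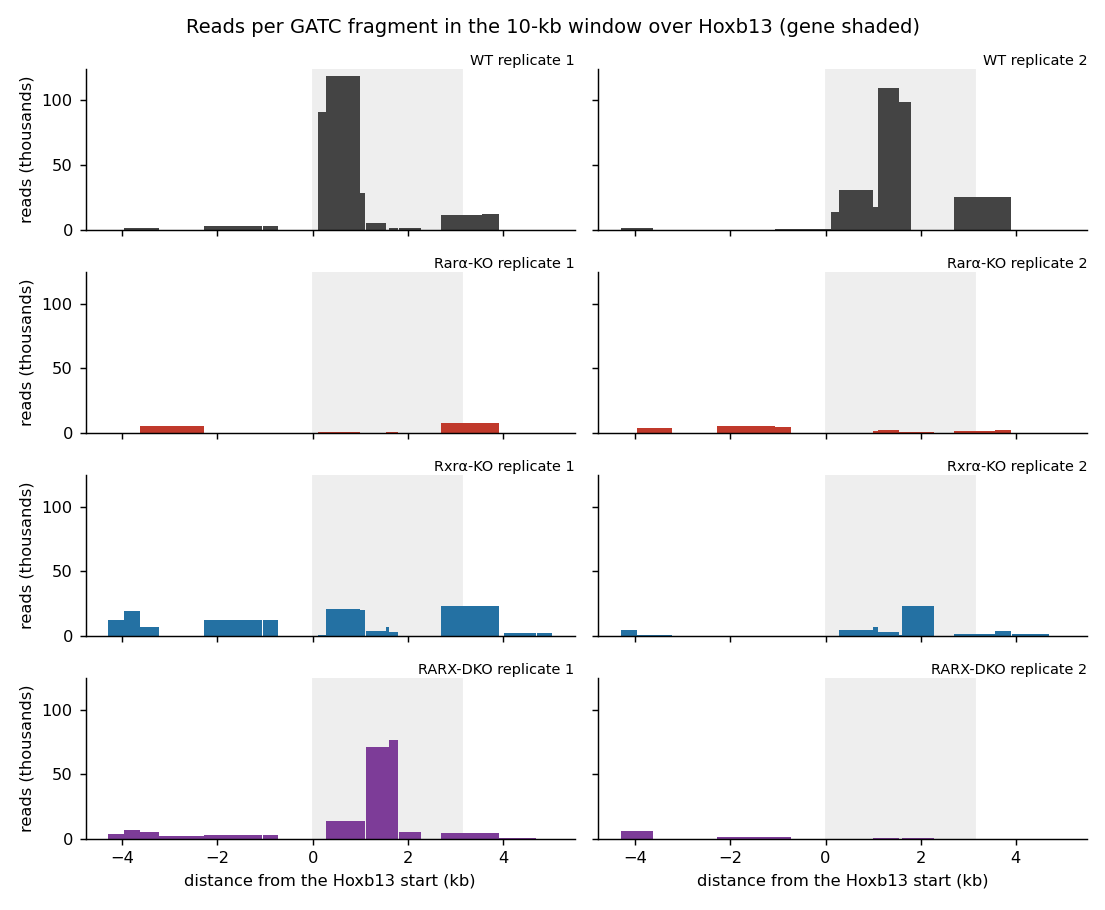
Reads per fragment (in units of 1000, y axis) in the 10-kb window over Hoxb13, one panel per library, by distance from the start of Hoxb13 (kb, x axis); bar width is the fragment's length and the gene is shaded. The 2 WT libraries are high on different fragments of the gene, RARX-DKO replicate 1 is high where WT replicate 2 is, and no fragment exceeds 7542 reads in the Rarα-KO libraries.

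The Hoxb-E2 libraries read the same window from the other bait, in other libraries of the same genotypes. There it held 0.777% and 0.33% of near reads in WT and 0.554% and 0.625% in Rarα-KO, so that the pairs overlapped and the log2 difference was 0.09 (SE 1.53, adjusted p = 0.991). The lower contact of Hoxb13 in Rarα-KO was therefore seen from Hoxb-E1 and not detected from Hoxb-E2. A test of the difference between the baits was not run.

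The other called window, chr11:96500001-96510000, lies 200 kb from the bait in introns of Skap1 and holds the tandem repeat printed above. It held 1.12% and 1.78% of near reads in WT, 6.8% and 3.69% in Rarα-KO, 0.83% and 0.865% in Rxrα-KO, and 3.77% and 6.09% in RARX-DKO. All 4 libraries without Rara were above all 4 libraries with it. Against WT the window rose in Rarα-KO (log2 fold change 1.85, SE 0.52, adjusted p = 0.0369), and in RARX-DKO the log2 difference of 1.76 did not pass (SE 0.52, adjusted p = 0.135). It was the one window that differed between knockouts (0.51% of those tested in each case): lower in Rxrα-KO than in Rarα-KO by 2.63 on the log2 scale (log2 difference -2.63, SE 0.53, adjusted p = 0.000197), and higher in RARX-DKO than in Rxrα-KO (2.54, SE 0.53, adjusted p = 0.000414). Between RARX-DKO and Rarα-KO no window passed (0%, with 8 at an unadjusted p under 0.05; DESeq2 was not run on the comparisons between knockouts).

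Most of these differences lay in the repeat. The run of 12 adjoining short fragments over the repeat (28 to 56 bases each, chr11:96509144-96509559) took 55169 and 182393 reads in WT, 992302 and 365390 in Rarα-KO, 2000 and 1293 in Rxrα-KO, and 426998 and 691153 in RARX-DKO. That was 31.5% and 77.4% of the window's reads in WT, 87.1% and 68.3% in Rarα-KO, 1.21% and 1.01% in Rxrα-KO, and 78.9% and 90.2% in RARX-DKO. Without the run, the window held 0.768% and 0.403% of near reads in WT, 0.876% and 1.17% in Rarα-KO, 0.819% and 0.856% in Rxrα-KO, and 0.797% and 0.594% in RARX-DKO, so that the RARX-DKO libraries then overlapped WT. Both Rxrα-KO libraries, below WT with the run included, were then above it, and both Rarα-KO libraries were above WT either way. With fragments under 100 bases left out of all windows, which held 14.34% to 23.58% of near reads, the log2 difference in Rarα-KO was 0.67 (adjusted p = 0.995), that of Rxrα-KO from Rarα-KO -0.26 (adjusted p = 1) and that of RARX-DKO from Rxrα-KO -0.050 (adjusted p = 0.997). Short reads from repeat units that are nearly the same can be assigned to any of them, and how the authors placed such reads is not given. Adjoining fragments of the run often had nearly equal counts. In Rarα-KO replicate 1 these were 138922, 137928 and 137899 reads, and then 84527, 84501 and 84501. The sums over the run may therefore count the same reads on several fragments, which was not tested. From the Hoxb-E2 bait the window held 3.19% and 0.988% in WT, 7.97% and 1.48% in Rarα-KO, 1.11% and 0.97% in Rxrα-KO, and 3.38% and 3.38% in RARX-DKO, with no difference from WT that passed (adjusted p = 0.84, 0.999 and 1).

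**Figure D4:**
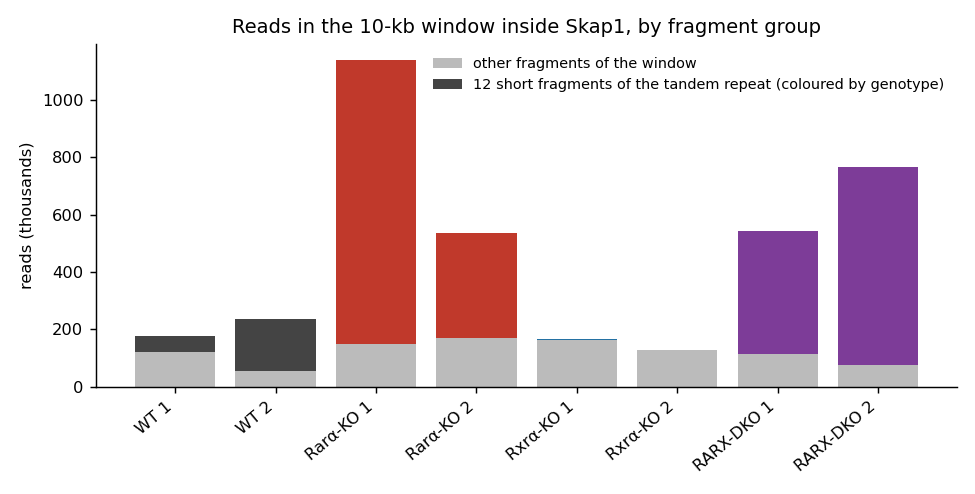
Reads (in units of 1000, y axis, from 0) in the 10-kb window inside Skap1 for each of the 8 libraries, split into the 12 short fragments over the tandem repeat (coloured by genotype) and all other fragments (grey). The coloured part runs from 1293 reads in Rxrα-KO replicate 2 to 992302 in Rarα-KO replicate 1, and the grey part shows no such order.

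The call inside Skap1 in Rarα-KO was lost without WT replicate 1 (adjusted p = 0.973), WT replicate 2 (adjusted p = 0.23), Rarα-KO replicate 1 (adjusted p = 0.722), Rxrα-KO replicate 1 (adjusted p = 0.122) or Rxrα-KO replicate 2 (adjusted p = 0.102), and its adjusted p ranged from 0.0112 to 0.995 over all alternatives. It was also lost with TMM scaling (adjusted p = 0.522), with all reads outside the bait windows as library size (adjusted p = 0.077), with DESeq2 (adjusted p = 0.0589), with capped reads (adjusted p = 0.622) and with fragments in place of reads (adjusted p = 0.995), and no window was higher in Rarα-KO at 5 kb or 20 kb. The difference of Rxrα-KO from Rarα-KO was lost without Rarα-KO replicate 1 (adjusted p = 0.193) or either Rxrα-KO library (0.17 and 0.0547) and with TMM scaling (0.118), and ranged from 2.3e-05 to 1. In RARX-DKO against WT the window passed without RARX-DKO replicate 1 (2.07, adjusted p = 0.0156, range 0.0156 to 0.999). The difference between RARX-DKO and Rxrα-KO was lost without either Rxrα-KO library (0.239 and 0.143) and with TMM scaling (0.0724), and ranged from 5.4e-05 to 0.997.

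In the comparisons without a call, and as the third of Rarα-KO, the windows of lowest p are given by their values. The window chr11:96220001-96230000, between Hoxb13 and Hoxb9, held 0.0188% and 0.107% of near reads in WT, 1.44% and 0.256% in Rarα-KO, 0.525% and 0.322% in Rxrα-KO, and 1.04% and 0.384% in RARX-DKO. All 6 knockout libraries were above both WT libraries, and neither Rarα-KO (adjusted p = 0.223) nor RARX-DKO (adjusted p = 0.379) passed, except Rarα-KO without its replicate 2 (adjusted p = 0.0182) and with DESeq2 (adjusted p = 0.00822), over a range of 0.00822 to 0.995. The window chr11:96090001-96100000 over Calcoco2, an autophagy receptor gene, held 0.442% and 0.124% in WT against 1.23% and 1.42% in Rxrα-KO (adjusted p = 0.857). In Rxrα-KO the remaining windows of lowest p lay farther off, at chr11:95320001-95330000 (0.00759% and 0.65% in WT; 1.0e-05% and 0.000209% in Rxrα-KO) and chr11:95650001-95660000 (0.52% and 0.412%; 0.000221% and 0.0216%), both with an adjusted p of 0.857. In RARX-DKO the window chr11:97200001-97210000 over Npepps, an aminopeptidase gene, held 0.354% and 0.427% against 0.000353% and 0% in WT (adjusted p = 0.379). Between RARX-DKO and Rarα-KO, the window chr11:96390001-96400000 beyond Hoxb1 held 1.35% and 0.885% against 3.41% and 2.87% (adjusted p = 0.486), and 2.95% and 2.64% in WT. The window chr11:96470001-96480000 in the first part of Skap1 held 1.56% and 2.6% against 0.204% and 0.86% (adjusted p = 0.486, and 0.0472 without Rarα-KO replicate 2, over a range of 0.0472 to 0.999). Neither Rxrα-KO library had a read in chr11:95310001-95320000 near Kat7, a histone acetyltransferase gene, where Rarα-KO held 0.19% and 2.76e-05% (adjusted p = 0.742).

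Contacts with gene starts were summed over 5 kb on each side, for 52 genes of which 44 lay outside the bait windows and were tested. In Rarα-KO 1 was lower (2.27%), Hoxb13, and none passed in Rxrα-KO or RARX-DKO (0% each). At an unadjusted p under 0.05 there were 2, 0 and 0 gene starts, and DESeq2 called 4, 0 and 0. The start of Hoxb13 held 2.5% ± 1.01 (SD, n = 2) of near reads in WT and 0.171% ± 0.014 in Rarα-KO (log2 fold change -3.87, SE 0.96, edgeR adjusted p = 0.037). This is the same stretch as the called window and no second result, and the call was lost when any 1 of the WT, Rarα-KO or Rxrα-KO libraries was left out (adjusted p = 0.0848 to 0.62). In RARX-DKO the start of Hoxb13 passed without RARX-DKO replicate 1 (-4.14, adjusted p = 0.00947).

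At the 5′ end of the cluster, Hoxb9, a trunk patterning gene 33.5 kb from the bait, held 1.64% and 3.76% in WT, 0.831% and 0.833% in Rarα-KO, 1.97% and 2.11% in Rxrα-KO, and 2.49% and 1.37% in RARX-DKO. Both Rarα-KO libraries were below all others, and the difference did not pass (log2 -1.70, SE 0.59, adjusted p = 0.15), except without WT replicate 1 (-2.18, adjusted p = 0.00769, with up to 0.717 over the left-out libraries). Mir196a-1, a microRNA gene beside Hoxb9, held 0.587% and 0.797% in WT, 0.0945% and 0.336% in Rarα-KO, 0.234% and 0.252% in Rxrα-KO, and 0.603% and 1.13% in RARX-DKO. Its single-knockout libraries were all below WT, with adjusted p = 0.555 and 0.974. The intervals of Hoxb9 and Mir196a-1 overlap and can share reads, so these are not separate observations.

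At the 3′ end, where the early retinoic acid targets lie, no contact difference passed. Hoxb1 held 1.77% and 1.8% in WT, 1.9% and 1.32% in Rarα-KO, 2.55% and 1.55% in Rxrα-KO, and 1.24% and 1.37% in RARX-DKO. Its RARX-DKO libraries were below both WT libraries, with a log2 difference of -0.46 (SE 0.58, adjusted p = 0.992). Hoxb2 held 2.53% and 1.56% in WT and 1.08% to 1.96% in the 6 knockout libraries, overlapping WT in each genotype. Hoxb3os, the antisense gene whose start adjoins Hoxb2, held 2.09% and 2.24% in WT, 1.21% and 1.17% in Rarα-KO, 2.2% and 1.92% in Rxrα-KO, and 1.11% and 0.909% in RARX-DKO. All 4 libraries without Rara were below all 4 with it, and the log2 differences of -0.86 (adjusted p = 0.814) and -1.10 (adjusted p = 0.992) did not pass. The intervals of Hoxb2 and Hoxb3os overlap and share reads.

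The central genes lie in the bait windows and so next to the bait, where reads are most plentiful and least specific. Their reads in the bait windows are not part of near reads, so the values here are ratios to near reads and not shares of them. Hoxb5 held 16.76% and 15.52% in WT, 6.97% and 11.29% in Rarα-KO, 15.77% and 17.03% in Rxrα-KO, and 9.98% and 13.14% in RARX-DKO. All 4 libraries without Rara were again below all 4 with it, at a start so close to the bait that no test was made. The bait windows as a whole took 9.07% and 12.98% of all reads in Rarα-KO and 13.08% and 13.39% in RARX-DKO. They took 15.65% and 19.58% in WT and 17.48% and 22.67% in Rxrα-KO, which is the same split of the libraries. The part of this bait share in the Hoxb5 values was not tested. Hoxb4 held 4.94% and 3.46% in WT, 4.05% and 3.03% in Rarα-KO, 6.75% and 5.61% in Rxrα-KO, and 4.36% and 3.51% in RARX-DKO, so that Rxrα-KO was highest. Hoxb3 held 2% to 4.35% in the 8 libraries, Hoxb6 0.658% to 2.31%, Hoxb7 1.94% to 3.23% and Hoxb8 1.65% to 2.51%. With only the bait window itself left out, the log2 differences of Hoxb3, Hoxb4, Hoxb6, Hoxb7 and Hoxb8 lay between -0.68 and 0.55 in the 3 comparisons and none passed (lowest adjusted p = 0.831).

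Of the 16 listed genes of the Hoxb cluster, 14 were matched and 6 tested: 1 was lower and 0 higher in Rarα-KO, and none passed in Rxrα-KO or RARX-DKO. Their median log2 differences were -1.27, -0.26 and -0.47, beside -0.75, -0.32 and -0.20 over all 44 gene starts. Of the 18 genes on the Skap1 side none passed in any comparison (medians -0.59, -0.27 and -0.05), nor did any of the 14 beyond Hoxb13 (0.60, -0.28 and -0.29). The start of Skap1, 159.6 kb away, held 1.13% and 2.93% in WT, and the 6 knockout libraries lay between 0.766% and 2.26%. Calcoco2 held 0.543% and 0.863% in WT and 0.047% to 1.44% in the others, and it passed in RARX-DKO only without RARX-DKO replicate 1 (adjusted p = 0.0239). Farther genes were low: Snx11, a sorting nexin gene, held 0.277% to 0.565% in the 8 libraries, Cbx1, for a heterochromatin protein, 0.00062% to 0.359%, Nfe2l1, for a stress-response transcription factor, 0.000723% to 0.461%, and Ttll6, for a tubulin-modifying enzyme, 0.0128% to 0.846%. The starts of Cbx1, Nfe2l1 and Ttll6 differed more between the libraries of 1 genotype than between any 2 genotype means. At Ttll6 both Rarα-KO libraries (0.0515% and 0.0128%) still lay below all others (edgeR adjusted p = 0.555). At Nfe2l1 both (0.305% and 0.275%) lay above WT (0.136% and 0.169%, adjusted p = 0.829). At Cbx1 the Rarα-KO libraries overlapped WT.

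**Figure D5:**
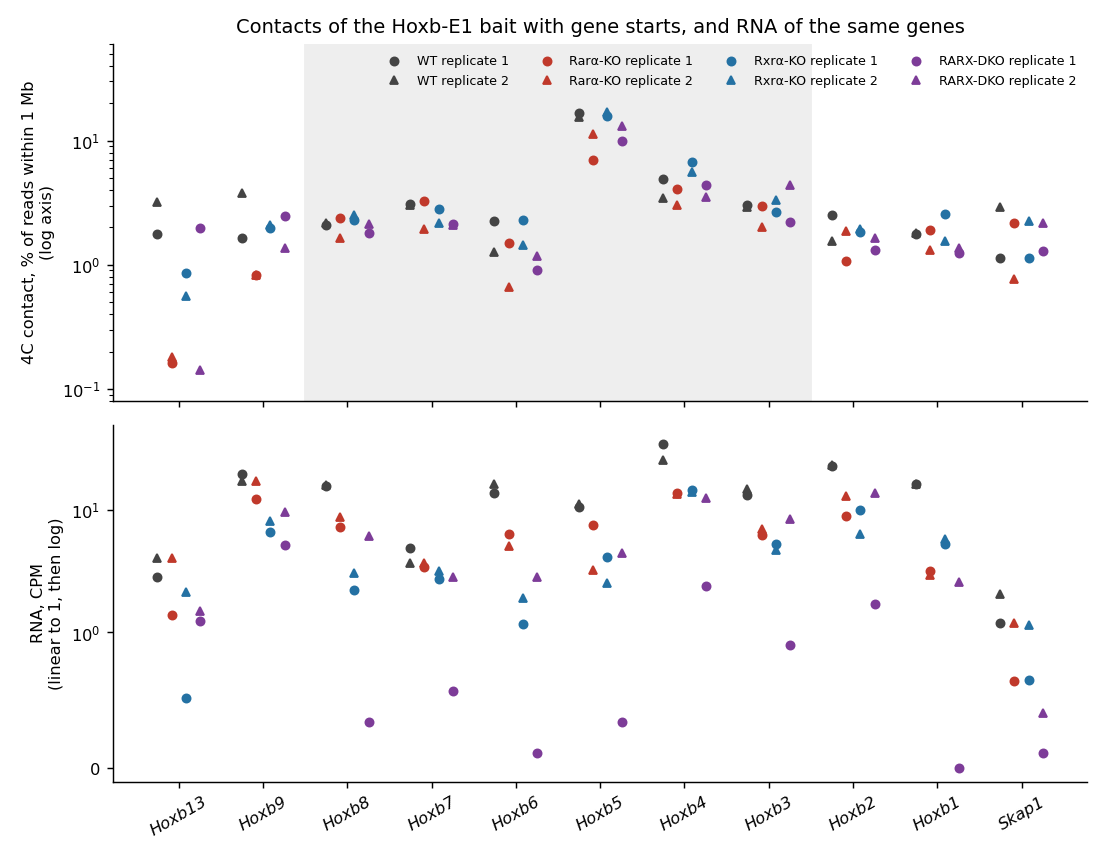
Upper panel, reads within 5 kb of each gene start relative to near reads (%, log axis), and lower panel, RNA of the same genes (CPM, linear to 1 and log above). Circles and triangles are replicates 1 and 2. The grey band marks starts in the bait windows, where the values are ratios to near reads and not shares of them. Contacts separate WT from Rarα-KO at Hoxb13 and Hoxb9, while RNA is below WT at most Hoxb genes in every knockout.

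At the level of single fragments nothing passed. Of 31742 fragments tested, 3072 of them within 1 Mb, none was called by edgeR in any knockout (0% each), with 1141, 796 and 896 at an unadjusted p under 0.05. DESeq2 called 2031, 3075 and 4214 on the same reads. Most fragments of lowest p were those with many reads in 1 library and almost none in the others: chr2:62023032-62023270 had 93588 reads in Rarα-KO replicate 2 and at most 34 in any other library. In the same way chr7:139854699-139854770 had 55149 reads in Rxrα-KO replicate 2 and chr6:23984209-23984259 had 127293 in RARX-DKO replicate 2, with at most 14 elsewhere. Near the bait, chr11:96843490-96843689 had 30637 and 8301 reads in WT, 12 and 2 in Rarα-KO, 0 and 0 in Rxrα-KO, and 51269 and 0 in RARX-DKO. The RARX-DKO pair thus spanned the whole range, and the lowest adjusted p in the 3 comparisons was 0.515.

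RNA of the genes around the bait gives another readout of the same genotypes, from other libraries with 7408691 to 13052102 counts. In bulk RNA, fewer cells of a type and less RNA per cell cannot be told apart. Over all 16445 genes tested, 0.645% passed in Rarα-KO, 2.47% in Rxrα-KO and 2.24% in RARX-DKO. Of 47 genes near the bait, 0 passed in Rarα-KO. In Rxrα-KO 3 passed: Hoxb6 and Hoxb9 fell and Zfp652, a zinc-finger gene, rose. In RARX-DKO 3 passed, and Hoxb1, Hoxb6 and Hoxb9 fell. These calls changed with single libraries: leaving out any 1 of the WT, Rarα-KO or Rxrα-KO libraries left 0 of those in Rxrα-KO, leaving out either RARX-DKO library gave 10 (9 lower, 1 higher) in Rxrα-KO and 4 lower in Rarα-KO, and the RARX-DKO count ranged from 0 (without any 1 WT or Rarα-KO library) to 12 (without RARX-DKO replicate 2).

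Hoxb RNA values lay mostly below WT in the knockouts, mostly without passing the test. The summed stem cell markers were above WT in the same libraries, and their part in the Hoxb values was not tested. Hoxb1 was at 16.5 and 16.5 CPM in WT, 3.2 and 2.94 in Rarα-KO, 5.33 and 5.83 in Rxrα-KO, and 0 and 2.58 in RARX-DKO, with log2 differences of -2.42 (SE 0.67, edgeR adjusted p = 0.188), -1.56 (SE 0.64, adjusted p = 0.272) and -3.75 (SE 0.77, adjusted p = 0.0423). Hoxb6 was at 13.8 and 16.5 CPM in WT, 6.41 and 5.12 in Rarα-KO, 1.17 and 1.9 in Rxrα-KO, and 0.113 and 2.85 in RARX-DKO. It fell by 3.29 on the log2 scale in Rxrα-KO (SE 0.69, adjusted p = 0.0373) and by 3.42 in RARX-DKO (SE 0.70, adjusted p = 0.0362). Hoxb4, beside the bait, was at 34.8 and 25.7 CPM in WT, 13.9 and 13.6 in Rarα-KO, 14.7 and 14.1 in Rxrα-KO, and 2.38 and 12.5 in RARX-DKO, below WT in all 6 libraries but past the test in none of the comparisons (adjusted p = 0.486, 0.37 and 0.121). Over the 13 listed Hoxb genes tested for RNA, the median log2 differences were -1.07, -1.49 and -1.64, beside 0.00, -0.01 and 0.01 over all genes, and 12, 13 and 13 of them lay below 0. With either RARX-DKO library left out, Hoxb1 passed in Rarα-KO (adjusted p = 0.00164 without replicate 1, and up to 0.698 without other libraries) and Hoxb4 passed in all 3 knockouts. RARX-DKO replicate 1 was below replicate 2 at each of these genes named here. The RNA and 4C libraries share no label that would tie a replicate of one to a replicate of the other.

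Hoxb13 lies in the window called lower in Rarα-KO. Its RNA was at 2.85 and 4.06 CPM in WT and 1.39 and 4.03 in Rarα-KO. In Rxrα-KO it was at 0.52 and 2.16, and in RARX-DKO at 1.25 and 1.49. The Rarα-KO pair overlapped WT, and no difference passed (adjusted p = 0.866, 0.302 and 0.344). Skap1 holds the window called higher in Rarα-KO. Its RNA was at 1.2 and 2.07 CPM in WT and 0.641 and 1.2 in Rarα-KO. In Rxrα-KO it was at 0.65 and 1.14, and in RARX-DKO at 0.113 and 0.407. The differences from WT did not pass (edgeR adjusted p = 0.672, 0.553 and 0.104). Neither gene thus had an RNA change that passed in Rarα-KO, the genotype in which its contact window was called. Both window calls were lost under several other settings, as given above.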

How the data were processed

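The 8 Hoxb-E1 tables list, per the file headers, a count of reads per fragment, deposited without normalization and with only fragments of 1 read or more. The q-value that the authors deposited beside it was not used. All 26326 chromosome 11 fragments in the tables have GATC at both ends on GRCm38. The restriction enzymes, the 4C program and its filters are not given in the sources used here. Of adjoining fragments with 1000 or more reads, 59.18% to 66.53% of pairs agreed within 10%. Whether a junction was counted on both sides of a site was not tested. The RNA table holds raw counts per gene on mm10, per the submitters' processing notes, which name HISAT2 2.1.0 and HTSeq 0.9.1 without a role.

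Reads were summed by fragment midpoint into 10-kb windows within 1 Mb of the bait window (196 windows with a mean of 10 or more reads, after leaving out the bait window and 2 on each side) and over 5 kb on each side of gene starts (GENCODE vM21). Library size was the sum over these windows. Single fragments and RNA used filterByExpr at a minimum count of 10 and TMM scaling. All 4 genotypes were fitted together by the robust quasi-likelihood test of edgeR 4.0.16, with genotype as the only term, Benjamini-Hochberg adjustment and a threshold of 0.05. Each SE was taken as the size of the log2 value divided by the root of its F statistic. DESeq2 1.42.0 was an alternative, with other scalings, window sizes, filters, caps at the 90th percentile of a library's fragments, and each library left out. The scripts were tested on simulated data. Region shares were compared by exact permutation (scipy 1.17.1).

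Windows and fragments were named if they passed without overlap between groups, and the 3 of lowest p where fewer passed. Listed gene starts were always named. The members and lists were chosen with earlier results of these data known. Prac1 and Prac2 were not matched. One sequence is not reported here.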

Additional observations from a re-analysis of the deposited data

Results flagged for a closer look

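The window chr11:96500001-96510000 inside Skap1 was picked out because its contact with the bait differed between knockouts by a test of the difference itself. It was lower in Rxrα-KO than in Rarα-KO (log2 difference -2.63, edgeR adjusted p = 0.000197) and higher in RARX-DKO than in Rxrα-KO (log2 difference 2.54, adjusted p = 0.000414), in 2 of 2 libraries each time. The run of short repeat fragments in it had 2000 and 1293 reads in Rxrα-KO and 365390 to 992302 in the libraries of Rarα-KO and RARX-DKO, and the difference between RARX-DKO and Rxrα-KO was -0.050 without fragments under 100 bases.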

How the results depend on the processing

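The count of windows called in Rarα-KO against WT (2) was 0 with TMM scaling, in 5-kb and 20-kb windows, with fragments with a read in place of reads and with capped reads, 1 with all reads outside the bait windows as library size, 1 without fragments under 100 bases, and 9 with DESeq2 (4 higher, 5 lower). Leaving out each library gave 0 to 5. In Rxrα-KO the count (0) was 7 with DESeq2, 1 with only WT and this knockout in the fit, and 0 to 0 with each library left out. In RARX-DKO (0) it was 5 with DESeq2 and 0 to 3 with each library left out. Without RARX-DKO replicate 1 it was 3. Between knockouts, the windows of Rxrα-KO against Rarα-KO (1) and of RARX-DKO against Rxrα-KO (1) were 0 with TMM scaling and 0 without fragments under 100 bases, and ranged from 0 to 2 and 0 to 1 with each library left out. RARX-DKO against Rarα-KO (0) ranged from 0 to 2. Fragments called by DESeq2 numbered 2031, 3075 and 4214 against 0 by edgeR. Gene starts called in Rarα-KO (1) were 0 at 10 kb on each side, 0 with fragments with a read, 0 with only the bait window left out, 4 with DESeq2, 2 without fragments under 100 bases and 0 to 1 with each library left out, and those in RARX-DKO (0) were 0 to 2. RNA calls near the bait (0, 3 and 3) were 4, 9 and 11 with no filter on low counts, and 0 to 4, 0 to 10 and 0 to 12 with each library left out.

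Directions turned for Hoxb13 with fragments with a read in place of reads (0.14 for the window, 0.094 for the gene start) and for the window inside Skap1, RARX-DKO against Rxrα-KO, without fragments under 100 bases (-0.050). Both settings use all 8 libraries. The first counts each fragment with a read once, and the second leaves out the short fragments. The cause of these turns was not tested. The settings without short fragments, with only the bait window left out, the left-out libraries of comparisons between knockouts and the test over 4 genotypes were chosen after seeing the data.

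With the replicate number as a block, 1 window was called in Rarα-KO (the window inside Skap1 missed, adjusted p = 0.057), and no other count of windows, fragments, gene starts or RNA calls near the bait moved by over 1.5 times. Of the RNA calls, that of Zfp652 in Rxrα-KO and that of Hoxb1 in RARX-DKO (adjusted p = 0.0602) were lost, which left 2 in each. With 2 numbers the pairing cannot be settled: replicate differences correlated between genotypes by -0.0293 to 0.239 over 196 windows.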

Other observations

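On other chromosomes the reads were spread over all of them, with 1.74% to 9.93% of the interchromosomal reads of a library on each chromosome but Y. The Y chromosome took 0.51% and 0.452% in WT, 0.154% and 0.0766% in Rarα-KO, 0.227% and 0.283% in Rxrα-KO, and 0.073% and 0.079% in RARX-DKO, so that all 6 knockout libraries were below WT. No test was made. The fragment chr2:98666048-98668221 was high in all 8 libraries, with 27738 to 252274 reads.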
